A study of Mus musculus with 2 samples.

Results

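The proteasome genes were described across 2 arrays of mouse bone marrow-derived macrophages: 1 of c-Maf-/- cells and 1 of c-Maf+/- cells. c-Maf, the product of Maf, is a macrophage transcription factor of the leucine zipper class. Marrow cells of both genotypes had been grown for 5 days with M-CSF supplied as CMG14-12 culture medium, and both preparations then received 100 ng/ml LPS, the endotoxin of Gram-negative bacteria, for 5 h. The c-Maf+/- cells carry 1 disrupted allele, so the comparison is between no intact allele and 1, and neither genotype was compared here with a wild type or with unstimulated cells. The age of the animals, their number per preparation and the construction of the c-Maf allele are not given in the sources used here.

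The members were all genes on the array whose symbol begins with Psma, Psmb, Psmc, Psmd, Psme, Psmf or Psmg followed by a digit, with the inducible subunits Psmb8, Psmb9 and Psmb10 left out. This rule took in 46 names, represented by 59 of the 55681 probes. Of these names, 44 were well above background on both arrays and 2 on neither. They were read beside all 12422 genes with a RefSeq symbol that were measured on both arrays. No measured value entered the rule. The member Psmc3ip carries a matching symbol but encodes a meiotic recombination factor and no part of the proteasome.

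The proteasome degrades proteins tagged with ubiquitin. Its barrel-shaped 20S core is built of alpha rings, which gate the entrance, and beta rings, which hold the proteolytic sites. A 19S particle of ATPases and ubiquitin receptors caps the core, unfolds the substrate and feeds it in. Dedicated chaperones assemble both particles, and other activators can take the place of the 19S cap. In macrophages the proteasome also removes the inhibitors that hold NF-kB in the cytoplasm, and it makes peptides for MHC class I molecules, partly with inducible immunoproteasome subunits.

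Expression was read as the processed Cy3 signal of each probe. A difference below is log2 of that signal minus the array's value at the 75th percentile, c-Maf-/- minus c-Maf+/-, averaged over the probes of a gene. With 1 array per genotype there is no replicate error and no test, and a difference describes these arrays. Measures of technical spread and an error setting were available. Spots of the same probe gave a median SD of 0.07 in the difference, over 227 probes with at least 8 usable spots. The 95th percentile of this SD was 0.36. Different probes of the same gene gave a median SD of 0.09, over 3454 genes, with a 95th percentile of 0.48. The error model of the feature extraction software, deposited with each spot, gave a median error of 0.20 for the difference of a member's spot. That model takes a multiplicative error of 0.1, given in the file headers. The value of 0.20 thus mostly reflects a setting and is not a spread measured on these arrays. Farther from 0 than this value lay 5 members (Psme3, Psmd5, Psme4, Psme2b and Psma7). In bulk samples of this kind, fewer cells of a type and less RNA per cell cannot be told apart.

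The arrays were alike in quality. In c-Maf-/- cells the 75th percentile of signal was 296 and 44.9% of spots were well above background, against 291 and 45.3% in c-Maf+/- cells. The Maf probes were far dimmer in c-Maf-/- cells. The probe at chr8:118227736-118227795 (build mm9) read 12.6, not well above background, in c-Maf-/- cells and 15102 in c-Maf+/- cells, at least 636-fold lower. The other, at chr8:118207273-118207332, read 5.96 and 541, at least 22.8-fold lower. Whether these probes lie in the deleted part is not settled by the labels. All 8 macrophage markers were detected on both arrays, and summed to 461980 in c-Maf-/- cells and 441768 in c-Maf+/- cells. They were split, with a median difference (log2, c-Maf-/- minus c-Maf+/-) of -0.21 and 5 of 8 below 0, from Mertk at -1.91 to Lyz2 at 0.58. All 8 neutrophil markers had differences below 0, with a median of -1.11, summing to 56131 in c-Maf-/- cells and 101474 in c-Maf+/- cells. Of the dendritic cell markers, 6 of 7 were detected on each array and 5 of these 6 were below 0. Their median was -0.75, with Fscn1 the lowest, Itgax at -1.09 and Flt3 above 0 at 0.47, while their sums (2613 in c-Maf-/- cells, 3108 in c-Maf+/- cells) came mostly from Ccr7 (-0.05). Of the erythroid and megakaryocyte markers 5 of 8 were detected, 4 of these 5 above 0, with a median of 0.72. Their sums, 57449 in c-Maf-/- and 58792 in c-Maf+/- cells, came mostly from Pf4 (-0.07). Hba-a1 read 55.4 in c-Maf-/- and 30.7 in c-Maf+/- cells, and Slc4a1 56.0 and 33.4. These are near the lowest signals well above background, 24.2 in c-Maf-/- and 22.3 in c-Maf+/- cells. Ppbp was brighter, at 986 and 562. Among the lymphocyte markers 4 of 7 were detected, 2 above 0 and 2 below, from Lck at -0.94 to Cd79b at 0.52, with sums of 2119 and 2644. Xcr1, Ms4a1, Ncr1, Hbb-b1 and Klf1 were among the markers not well above background on either array. The part of these cells in the differences below was not tested.

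Most proteasome genes lay close to equal levels in the 2 genotypes. The median difference over the 44 measured members was 0.01, with 23 members above 0 and 21 below, against a median of -0.02 over all genes, of which 46.2% were above 0. The spread of the members was narrow: 26 of the 44 (59.1%) lay within 0.1 of 0, against 30.6% of all genes. Their SD was 0.19, against 0.41 for all genes. Because dim probes vary more, the same values were read over the 7694 genes above the 75th percentile on both arrays, where 43 members (every measured one other than Psmc3ip) lie. In these brighter genes the SD was 0.34, 36.7% lay within 0.1 of 0, and 44.1% were above 0. The 43 members ran from 0.50 (Psmg2) to 8.13 (Psmb6) in log2 over the 75th percentile in c-Maf-/- cells, many far above that cutoff. The brighter genes were not matched to them in signal, so the part of brightness in the narrow spread was not tested.

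**Figure D1:**
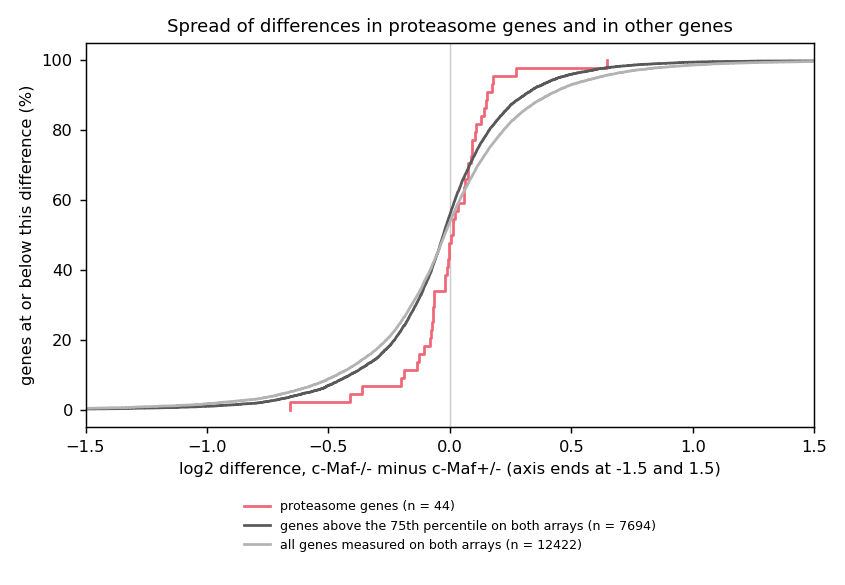
Cumulative share of genes (vertical axis, percent) at or below each log2 difference between the c-Maf-/- and the c-Maf+/- array (horizontal axis), for the 44 proteasome genes, the 7694 brighter genes and all 12422 genes. The line of the proteasome genes climbs most steeply around 0, where 59.1% of them lie within 0.1, and its lowest and highest members are at -0.66 and 0.65.

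No member differed by 2-fold in either direction. The share of all genes past 2-fold was 1.42% on the higher side and 1.74% on the lower side of c-Maf-/- cells. A smaller threshold was set at a log2 difference of 0.32 in either direction. It lies below the 95th percentile of the SD over spots (0.36) and over probes of a gene (0.48). A gene past the threshold is therefore not by that alone outside the technical spread. Past it, 1 member was higher (Psmd5) and 3 were lower (Psme3, Psme4 and Psme2b). Among all genes 13.5% passed this threshold upwards and 16.2% downwards, and among the brighter genes 9.20% and 13.7%. The members past 0.32 were thus a smaller share than the background in each direction, and 3 of these 4 belong to the same functional group, the activators.

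**Figure D2:**
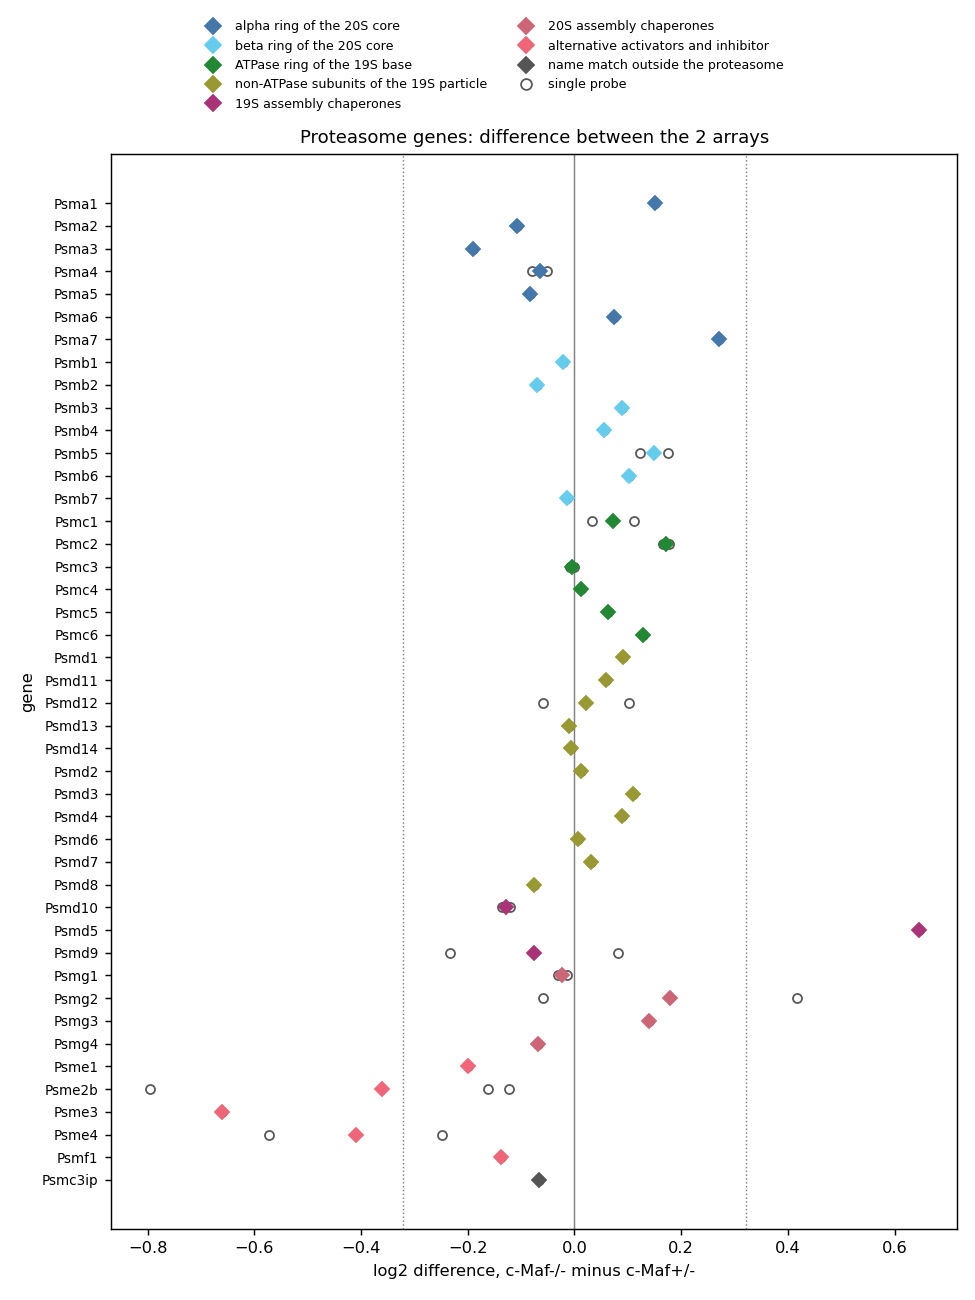
Log2 difference (horizontal axis, c-Maf-/- minus c-Maf+/-) of each of the 44 measured proteasome genes, one per line and coloured by role. Diamonds are genes, open circles are single probes, and dotted lines mark a difference of 0.32 in each direction. The core and cap subunits lie between -0.19 and 0.27, the 5 activators and inhibitor all lie below 0, and Psmd5 lies alone at 0.65.

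The alpha ring was split around 0. Its 7 measured genes had a median difference of -0.07, with 3 above 0 and 4 below, and a range of -0.19 to 0.27. Psma7 was the highest of them, reading 24363 in c-Maf-/- cells and 19841 in c-Maf+/- cells, a difference of 0.27 or 1.21-fold. Psma1 followed at 25530 in c-Maf-/- and 22576 in c-Maf+/- cells (0.15). At the other end Psma3 read 41868 in c-Maf-/- and 46923 in c-Maf+/- cells, a difference of -0.19. These genes encode parts of the same ring, and the widest gap within it was between Psma7 and Psma3. Psma2 read 73953 in c-Maf-/- and 78321 in c-Maf+/- cells (-0.11) and Psma5 read 31760 and 33047 (-0.08). Psma6 read 33859 in c-Maf-/- and 31580 in c-Maf+/- cells (0.07). The remaining gene, Psma4, had 2 probes, both slightly lower in c-Maf-/- cells, with 8121 and 11480 there and 8427 and 11684 in c-Maf+/- cells. The testis-specific alpha subunit Psma8 was not well above background on either array, at 6.08 in c-Maf-/- cells and 6.92 in c-Maf+/- cells, and has no fold.

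The beta ring holds the 3 catalytic subunits of the constitutive proteasome. Psmb5, which carries the chymotrypsin-like site, was measured by 2 probes. One read 18853 in c-Maf-/- and 16395 in c-Maf+/- cells and the other 107207 and 96675, giving differences of 0.18 and 0.12. Psmb6, with the caspase-like site, read 83057 in c-Maf-/- and 75982 in c-Maf+/- cells (0.10). Psmb7, with the trypsin-like site, read 5796 and 5748 (-0.01). The catalytic genes thus differed by 0.15 or less, below the error of 0.20 that the feature extraction software attaches to the difference of a spot. The structural subunits were as close. Psmb3 read 35654 in c-Maf-/- and 32922 in c-Maf+/- cells (0.09) and Psmb4 read 49949 and 47189 (0.06). Psmb1 read 11803 in c-Maf-/- and 11767 in c-Maf+/- cells (-0.02) and Psmb2 read 2038 and 2103 (-0.07). Over these 7 genes the median was 0.06, with 4 above 0. Psmb11, the subunit of the thymoproteasome of thymic epithelium, was not well above background on either array (6.03 in c-Maf-/- and 14.3 in c-Maf+/- cells) and has no fold.

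The 6 ATPases that form the ring of the 19S base had a median difference of 0.07, with 5 above 0 and 1 below, and none was past 0.32. Psmc2 was the highest. Its 2 probes, which overlap by most of their length, read 23047 and 29977 in c-Maf-/- cells, against 20167 and 26059 in c-Maf+/- cells, a mean difference of 0.17. Psmc6 read 4845 in c-Maf-/- and 4353 in c-Maf+/- cells (0.13). Psmc3 was the nearest to 0 of all members, with 65290 and 17219 in c-Maf-/- cells and 64479 and 16933 in c-Maf+/- cells. Psmc1 and Psmc5 lay at 0.07 and 0.06 and Psmc4 at 0.01.

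The other subunits of the 19S particle were the most uniform group. Of 11 genes, 10 lay within 0.1 of 0, and the group ran from -0.08 to 0.11 with a median of 0.02. Psmd1, a large scaffold subunit of the base, read 19142 in c-Maf-/- and 17645 in c-Maf+/- cells (0.09), and its counterpart Psmd2 read 20625 and 20089 (0.01). The ubiquitin receptor Psmd4 read 31235 in c-Maf-/- and 28859 in c-Maf+/- cells (0.09). The deubiquitinating subunit Psmd14, which removes ubiquitin chains from the substrate, read 3011 in c-Maf-/- and 2970 in c-Maf+/- cells (-0.01). Each of these is below the software's error of 0.20 for the difference of a spot. The lid subunits Psmd3 (0.11), Psmd11 (0.06), Psmd7 (0.03), Psmd6 (0.01), Psmd13 (-0.01) and Psmd8 (-0.08) filled the same range. Psmd12 had probes of opposite sign. One read 2282 in c-Maf-/- and 2334 in c-Maf+/- cells (-0.06) and the other 21197 and 19410 (0.10), a mean of 0.02. Differences this small depend on the scaling of the arrays. When the arrays were scaled to the spike-in transcripts, 39 of the 44 members came out above 0 and the median member difference was 0.16, beside a shift of 0.15 in the median of all genes.

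Psmd5 stood apart from the rest of the 19S genes. It encodes a chaperone that binds part of the 19S base during assembly and is absent from the finished particle. Its only probe, on the minus strand at chr2:34708108-34708167 (build mm9), read 1761 in c-Maf-/- cells and 1106 in c-Maf+/- cells. This was a difference of 0.65 or 1.56-fold, the highest of the 44 members and the only one past 0.32 upwards. The probe sequence is shown because the value rests on it alone.
Psmd5 probe: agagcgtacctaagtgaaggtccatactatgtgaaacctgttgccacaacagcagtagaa
The other chaperones of the 19S base did not share the difference. Psmd10 had 2 probes, with 2637 and 2095 in c-Maf-/- cells and 2817 and 2261 in c-Maf+/- cells, a mean of -0.13. Psmd9 had probes of opposite sign, 1 reading 316 in c-Maf-/- and 365 in c-Maf+/- cells (-0.23) and the other 1001 and 928 (0.08). The 3 chaperones thus had a median of -0.08 and a range of -0.13 to 0.65. Across the alternative ways of processing, Psmd5 stayed between 0.60 and 0.79.

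The chaperones of the 20S core, Psmg1 to Psmg4, form pairs that hold the alpha ring while it is built. Psmg1 read 871 and 4111 at its 2 probes in c-Maf-/- cells and 874 and 4079 in c-Maf+/- cells, a mean difference of -0.02. Psmg3 read 2426 in c-Maf-/- and 2162 in c-Maf+/- cells (0.14) and Psmg4 read 1199 and 1236 (-0.07). Psmg2 had the highest mean of the group, 0.18, but its probes went opposite ways. The dim probe read 150 in c-Maf-/- and 110 in c-Maf+/- cells (0.42), and the brighter one read 1181 and 1208 (-0.06). The probes lie side by side in the genome, so no direction was read for Psmg2. The group median was 0.06, with 2 genes above 0 and 2 below.

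The activators and the inhibitor, Psme1, Psme2b, Psme3, Psme4 and Psmf1, had a median difference of -0.36. All 5 were below 0, but only Psme3, Psme4 and Psme2b passed 0.32, and Psme1 and Psmf1 lay within the software's single-spot error of 0.20. The repeated spots of Psme1 differed far less, with an SD of 0.02. With the brightest probe per gene the median was -0.20 and only Psme3 passed. They ran from -0.66 to -0.14, while the subunits of the core and of the 19S particle ran from -0.19 to 0.27. The signals behind this and their limits are given gene by gene.

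**Figure D3:**
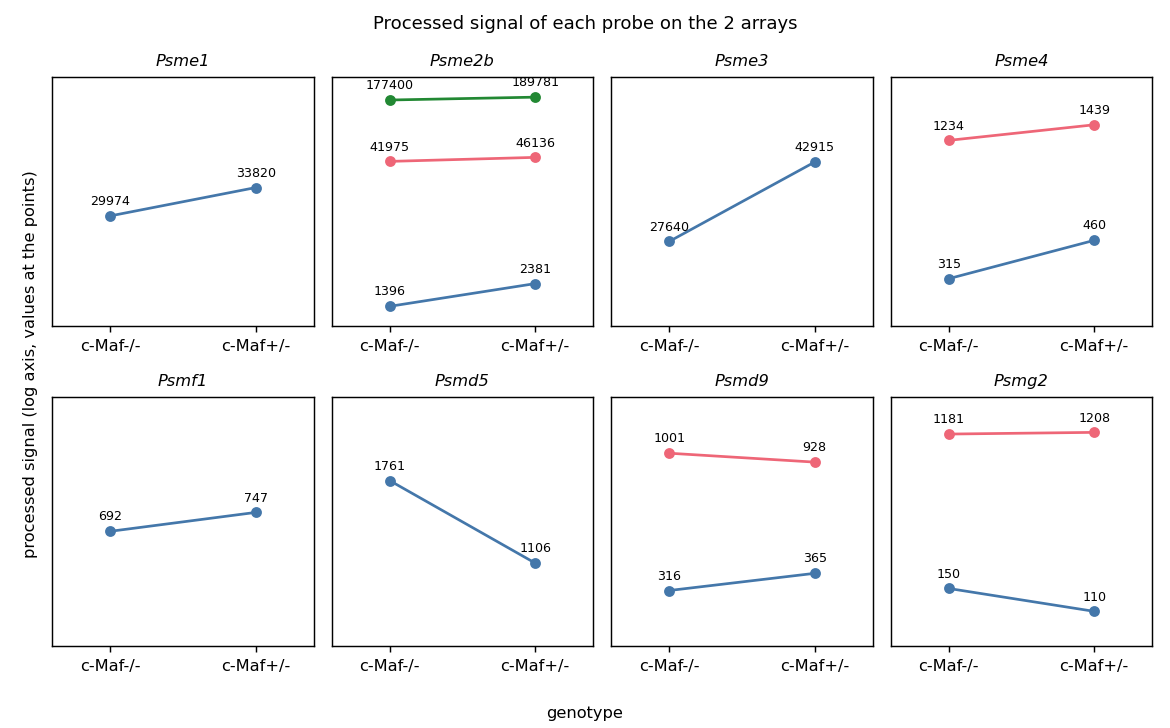
Processed signal (vertical log axis, with the value at each point) of every measured probe of 8 proteasome genes with c-Maf-/- at the left and c-Maf+/- at the right, each line being 1 probe and each panel having its own range. All probes of Psme1, Psme2b, Psme3, Psme4 and Psmf1 slope upwards to the c-Maf+/- array, Psmd5 slopes downwards, and Psmd9 and Psmg2 have probes that slope in opposite directions.

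Psme3 was the lowest of all members. It encodes PA28 gamma, a nuclear activator that opens the 20S core without ubiquitin. Its only probe, at chr11:101184289-101184348 (plus strand, build mm9), read 27640 in c-Maf-/- cells and 42915 in c-Maf+/- cells, a difference of -0.66 or 0.633-fold. The letters of this probe are unusual. Bases 19 to 48 of its 60 are printed with each T followed by G in capitals.
Psme3 probe, bases 19 to 48: TGcacaTGTGTGTGTGTGttcgTGTGTGTG
The whole probe holds 16 such TG steps, against a median of 5, and only 56 of the 55681 probes hold as many. The other 55 were all well above background on both arrays, and 52 of them were lower in c-Maf-/- cells. Their median difference was -0.38, with quartiles at -0.51 and -0.25, and 4 of them were at or below the Psme3 value. Over the 14326 measured probes with 4 to 7 TG steps the median was -0.02, and over the 135 with 12 to 15 it was -0.21. No other member probe held more than 9. This comparison was made after the Psme3 value and letters had been seen. The part of the repeat in the Psme3 difference was not tested, and a second Psme3 probe was not on the array.

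Psme4 encodes PA200, a large activator that caps the core and is known for its role in spermatogenesis and with acetylated histones. It had 2 probes far apart in the gene, and both were lower in c-Maf-/- cells. The probe at chr11:30710953-30711012 read 315 in c-Maf-/- and 460 in c-Maf+/- cells (-0.57), and that at chr11:30756055-30756114 read 1234 and 1439 (-0.25), both on the plus strand. Their mean of -0.41 (0.753-fold) was the next lowest after Psme3, with a probe SD of 0.23. The sequences are shown because Psme4 has 2 separate probes of the same sign.
Psme4 probe at chr11:30710953-30711012: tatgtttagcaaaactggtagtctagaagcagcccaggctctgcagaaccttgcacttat
Psme4 probe at chr11:30756055-30756114: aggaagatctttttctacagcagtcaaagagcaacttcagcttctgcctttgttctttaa
Neither holds the repeat seen in the Psme3 probe. The dimmer probe had the larger difference, and with the brighter probe alone Psme4 was at -0.25, short of the threshold of 0.32.

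Psme1 and Psme2 encode the alpha and beta subunits of PA28, the interferon-inducible ring that caps the core and favours the release of peptides for MHC class I. Psme1 was the best measured member, since its probe was printed in 10 spots. The spots averaged 29974.5 in c-Maf-/- and 33820 in c-Maf+/- cells, a difference of -0.20 with a spot SD of 0.02. No probe was named Psme2 on the array. The 3 probes named Psme2b, a close copy of Psme2, fell into 2 kinds. Of these, 2 also list Psme2 transcripts among their accessions, and they read 177400 in c-Maf-/- and 189781 in c-Maf+/- cells (-0.12) and 41975 and 46136 (-0.16). Signals of Psme2 and Psme2b cannot be told apart there. The remaining probe, at chr11:48759630-48759689, lists no Psme2 transcript and read 1396 in c-Maf-/- and 2381 in c-Maf+/- cells, a difference of -0.80. The Psme2b mean of -0.36 therefore joins unlike probes, and without that probe it was -0.14. A shared probe is printed whole, and the first 30 bases of the other.
Psme2b probe shared with Psme2, at chr11:48759495-48759554: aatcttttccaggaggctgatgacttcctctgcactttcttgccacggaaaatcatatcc
Psme2b probe listing no Psme2 transcript, bases 1 to 30: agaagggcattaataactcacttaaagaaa
The shared probes were close to Psme1, the partner subunit, at -0.12, -0.16 and -0.20.

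Psmf1 encodes PI31, named as an inhibitor of the core in the test tube. Its probe read 692 in c-Maf-/- and 747 in c-Maf+/- cells, a difference of -0.14, within the software's error of a single spot. Under spike-in scaling it was 0.01, so its direction depends on the scaling, while Psme1 (-0.05), Psme2b (-0.21), Psme4 (-0.26) and Psme3 (-0.51) kept theirs. Psmc3ip, the meiotic factor taken in by its name, read 139 in c-Maf-/- and 143 in c-Maf+/- cells (-0.07).

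**Figure D4:**
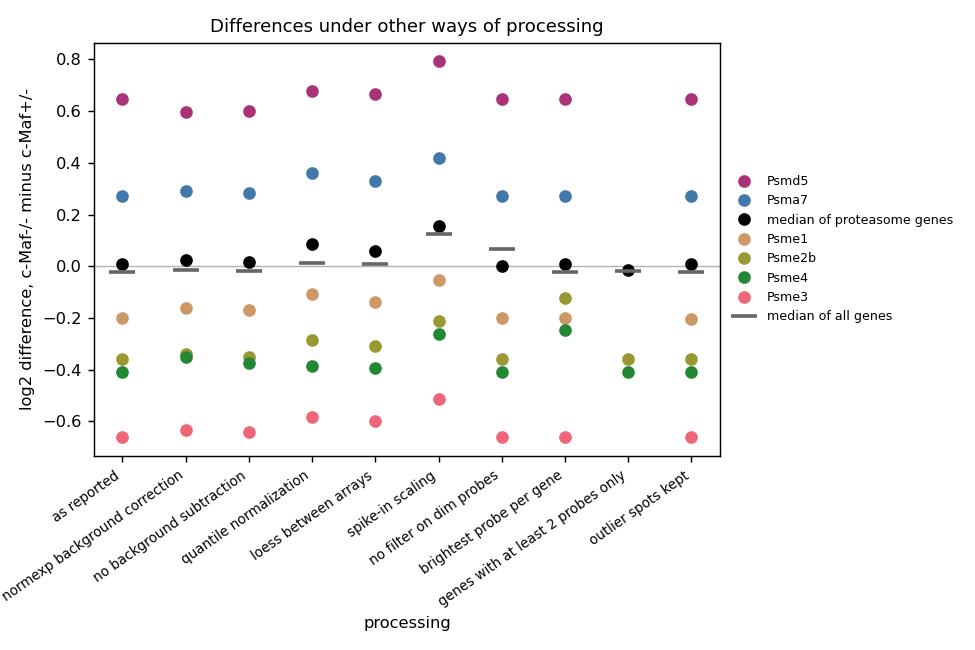
Log2 difference (vertical axis, c-Maf-/- minus c-Maf+/-) of 6 proteasome genes and of the median member under the reported processing and 9 alternatives (horizontal axis), with grey bars for the median of all genes. Of the plotted genes Psmd5 stays the highest and Psme3 the lowest wherever they can be computed, and spike-in scaling lifts every value by 0.15; single-probe genes have no point where 2 probes were required.

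The inducible counterparts of the catalytic subunits were set beside the constitutive ones. Psmb8 read 28771 in c-Maf-/- and 31567 in c-Maf+/- cells (-0.16), and Psmb10 read 130797 and 144591 (-0.17). Psmb9 had a bright probe at 20609 in c-Maf-/- and 22665 in c-Maf+/- cells (-0.16) and a dim probe at 35.1 and 43.3 (-0.33), a mean of -0.24. All 3 were below 0, and so were their PA28 partners, whereas the constitutive catalytic genes Psmb5, Psmb6 and Psmb7 were at 0.15, 0.10 and -0.01. Apart from the dim Psmb9 probe, each probe of these 6 inducible and constitutive catalytic genes lay within the software's error of 0.20 for a spot. That value mostly reflects a setting and is not a measured spread.

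Of 30 other measured genes of the ubiquitin-proteasome pathway, 13 (43.3%) lay within 0.1 of 0. That share was 59.1% for the members, 30.6% for all genes and 36.7% for the brighter genes. The 30 genes, taken from 5 further lists, had a median difference of 0.04, with 18 above 0. Their SD was 0.24, and 0.18 without Zfand5, a comparison made after its value was seen. Of these genes, 2 were higher and 1 was lower by at least 0.32, against 13.5% and 16.2% of all genes, and 0 passed 2-fold. The farthest from 0 was Zfand5, a zinc finger protein that binds the proteasome and stimulates it. Its 3 measured probes read 330, 45.8 and 12392 in c-Maf-/- cells, against 569, 82.3 and 20833 in c-Maf+/- cells, and lay between -0.87 and -0.78, a mean of -0.82. All 3 were lower, by a similar amount at dim and bright probes. Its relative Zfand2a, a stress-inducible protein, went the other way, with 6697 in c-Maf-/- and 4711 in c-Maf+/- cells (0.48). Ddi2, the protease that processes the transcription factor NRF1, had neighbouring probes at 1107 and 981 in c-Maf-/- cells and 843 and 743 in c-Maf+/- cells, a mean of 0.37. Uchl5, a deubiquitinating enzyme that docks on the 19S particle, averaged 3206 in c-Maf-/- and 3741 in c-Maf+/- cells over its 10 spots, a difference of -0.25 with a spot SD of 0.08.

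**Figure D5:**
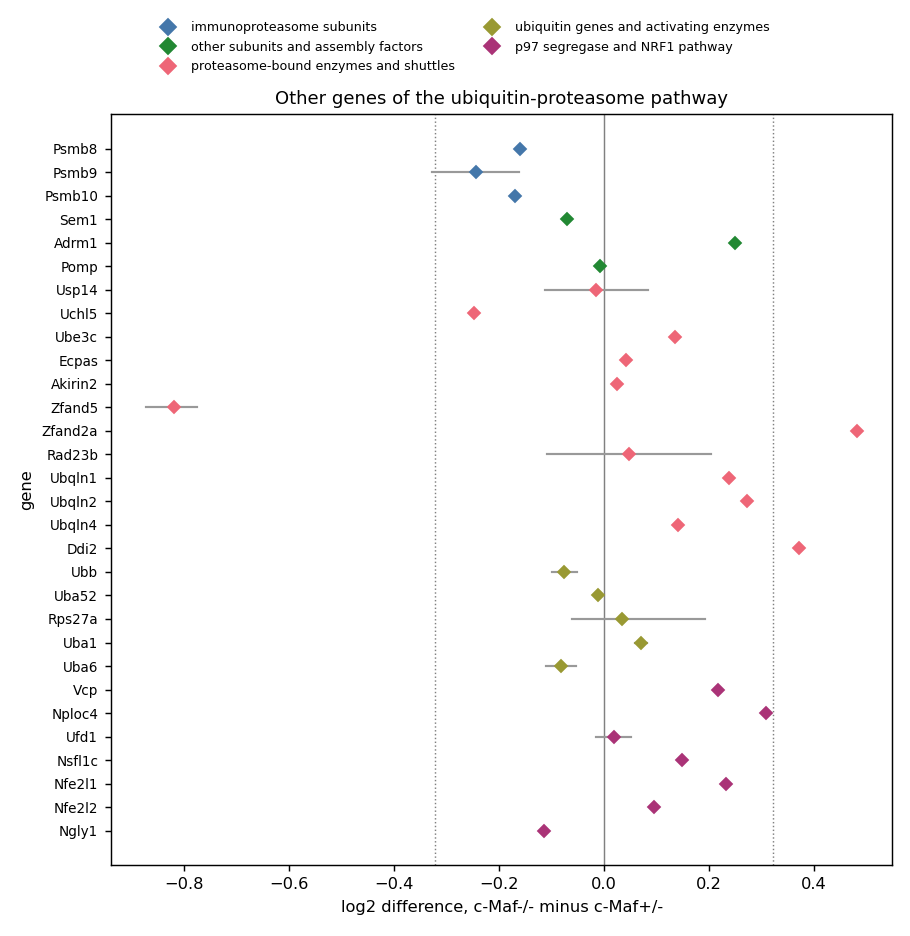
Log2 difference (horizontal axis, c-Maf-/- minus c-Maf+/-) of 30 other genes of the ubiquitin-proteasome pathway, one per line and coloured by list. Diamonds are genes, grey bars span the probes of a gene, and dotted lines mark a difference of 0.32 in each direction. Zfand5 lies farthest left at -0.82, Zfand2a farthest right at 0.48, and the 3 immunoproteasome genes lie left of 0.

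NRF1, encoded by Nfe2l1, is the factor that raises proteasome genes together when proteasome activity falls. Nfe2l1 read 548 in c-Maf-/- and 458 in c-Maf+/- cells (0.23), and its relative Nfe2l2 read 14976 and 13782 (0.09). The p97 segregase draws proteins out of membranes and complexes. The list of NRF1 and p97 had 6 of 7 genes above 0, against 46.2% of all genes, and a median of 0.15. Besides Nfe2l1 and Nfe2l2 it held Nploc4 at 0.31, Vcp at 0.22, Nsfl1c at 0.15 and Ufd1 at 0.02. The dim Ngly1 was at -0.11. The 5 ubiquitin genes and enzymes that activate ubiquitin had a median of -0.01 and all lay within 0.1 of 0, with Ubb at -0.08. Among the remaining subunits and assembly factors, the ubiquitin receptor Adrm1 was at 0.25, the small subunit Sem1 at -0.07 and the core maturation factor Pomp at -0.01. None of these passed 0.32.

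Promoters were searched for letters bound by factors known to act on such genes. RefSeq promoters (build GRCm38.p6), from 250 bases before to 50 after the start, were given for 38 of the 46 members. Both strands were searched, beside the share among the 27025 genes of the same table or the 17492 of them that are protein-coding. TGACNNNGC, the core of the antioxidant response element that NRF1 and NRF2 bind, was in 6 member promoters (15.8%) against 14.8% of the protein-coding genes in the table. Its carriers were Psmb5, Psmb6, Psmc6, Psmd12, Psmd9 and Psme4, with differences from -0.41 to 0.15. CCGGAAGT, the letters of an ETS site, were in 9 (23.7%) and in 4.31% of all, or 5.69% of the protein-coding genes. Their carriers ran from -0.66 (Psme3) to 0.17 (Psmc2), with a median of 0.02 and 6 of 9 above 0. GGGCGG, a GC box, was in 21 (55.3%), against 38.2% of all and 49.2% of the protein-coding genes, and CCAAT in 14 (36.8%), against 41.1%. TGCTGAC, the core letters of a Maf recognition element, were in 1 member promoter, that of the undetected Psmb11 (2.63%), and in 5.28% of all. GGGCGG and CCGGAAGT can overlap on opposite strands, as in Psme4. A match is a description of letters and not a site.

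The promoters of 4 members are printed from 5′ to 3′ on the gene's strand, with the matches in capitals, to set the activators and Psmd5 beside a catalytic subunit.
Psme3, chr11:101315963-101316262, plus strand: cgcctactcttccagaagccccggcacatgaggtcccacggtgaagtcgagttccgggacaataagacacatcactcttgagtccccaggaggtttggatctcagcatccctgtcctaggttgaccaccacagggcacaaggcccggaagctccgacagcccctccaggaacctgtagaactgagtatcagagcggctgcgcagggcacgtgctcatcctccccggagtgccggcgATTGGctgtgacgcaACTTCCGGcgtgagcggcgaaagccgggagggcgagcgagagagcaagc
Psme4, chr11:30771525-30771824, plus strand: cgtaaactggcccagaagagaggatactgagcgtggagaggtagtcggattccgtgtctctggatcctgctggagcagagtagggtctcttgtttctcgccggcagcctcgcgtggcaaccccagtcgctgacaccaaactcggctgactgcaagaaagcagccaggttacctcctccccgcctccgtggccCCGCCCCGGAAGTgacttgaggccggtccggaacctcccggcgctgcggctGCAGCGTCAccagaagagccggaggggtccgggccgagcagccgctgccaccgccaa
Psmd5, chr2:34870913-34871212, minus strand: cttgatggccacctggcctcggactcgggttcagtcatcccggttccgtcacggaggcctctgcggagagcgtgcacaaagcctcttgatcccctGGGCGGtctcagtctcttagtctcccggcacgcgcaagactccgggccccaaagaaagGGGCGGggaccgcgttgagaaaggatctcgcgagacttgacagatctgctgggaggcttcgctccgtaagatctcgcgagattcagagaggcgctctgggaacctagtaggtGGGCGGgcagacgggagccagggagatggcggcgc
Psmb5, chr14:54617946-54618245, minus strand: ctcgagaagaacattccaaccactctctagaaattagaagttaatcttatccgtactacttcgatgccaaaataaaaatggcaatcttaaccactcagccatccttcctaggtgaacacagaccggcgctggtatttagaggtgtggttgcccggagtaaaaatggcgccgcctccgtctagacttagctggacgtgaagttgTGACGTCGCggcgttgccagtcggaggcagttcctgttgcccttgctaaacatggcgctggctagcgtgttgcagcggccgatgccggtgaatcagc
Psme3 holds CCAAT and CCGGAAGT, both as their reverse complements. Psme4 holds CCGGAAGT joined to a reversed GC box, and TGACNNNGC on the reverse strand. Psmd5 holds 3 GC boxes and none of the other motifs, and Psmb5 holds 1 TGACNNNGC. Psme4 and Psmb5, which share TGACNNNGC, lay at -0.41 and 0.15. Psme3 and Psme4, which share CCGGAAGT, lay at -0.66 and -0.41. These were the lowest of the 9 CCGGAAGT carriers, whose median was 0.02 with 6 above 0.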

How the data were processed

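Total RNA (50 ng per array) was labelled with Cy3, per the labels' protocols. The deposited intensity values come from array design 028005 (build mm9), read by Agilent Feature Extraction 10.7.3.1 under the protocol GE1_107_Sep09, per the file headers. They were background-subtracted and detrended within each array and not normalized between arrays. The deposited flags, given as 0 and 1 per the file headers, mark spots well above background, saturated spots and outliers. The authors deposited linear intensities, and the log2 scale was computed here.

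From log2 of each processed signal the array's 75th percentile over the 59305 non-control spots was subtracted. Outlier spots (149 on the c-Maf-/- and 136 on the c-Maf+/- array) were dropped, 0 spots were saturated, and repeated spots were averaged per probe. A gene's difference is the mean over its probes well above background on both arrays. A probe above background on 1 array gave a bound, against the higher of its own dim signal and the lowest signal well above background there (24.2 in c-Maf-/- and 22.3 in c-Maf+/-). Names were updated through RefSeq by accession (28026 probes), symbol (3418), older symbol (270) or another accession (103). The other 23864 probes matched no symbol and are not among the 12422 genes. Members kept the name in the files. Exon and UTR positions in mm9 are not stated, since no mm9 annotation was used. Promoters are those of RefSeq, GRCm38.p6.

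Samples were grouped by the genotype label, with 1 array per genotype. No test, p-value or SD between samples was possible, and the number of arrays limits the precision. Both arrays were on 1 slide, where each position belongs to 1 genotype. Every member was described by role, with full values for the 6 highest, the 6 lowest, those past a log2 difference of 0.32 and those with probes of opposite sign. Named among related genes were the 2 farthest from 0 each way and a few named whatever their value. A few genes of these lists are not reported here. Psme2b was placed with the activators after its name on the array was seen. The members, lists and rules were chosen with earlier results of these data known. The calculation was tested on simulated data. Alternatives were normexp (offset 50, limma 3.58.1 in R 4.3.3), no background subtraction, quantile, loess (span 0.3) and spike-in scaling, no filter on dim probes, the brightest probe per gene, genes with at least 2 probes, and outlier spots kept. Calculations used Python 3.11.15 with numpy 2.4.6, pandas 2.3.3 and statsmodels 0.14.6.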

Additional observations from a re-analysis of the deposited data

How the results depend on the processing

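No paired analysis was possible because each genotype has 1 array. Under the 9 alternatives, 27 of the 44 members kept 1 direction and 17 took both, 9 of them with spike-in scaling left out. Psmd5 stayed between 0.60 and 0.79, Psme3 between -0.66 and -0.51, Psme4 between -0.41 and -0.25 and Psma7 between 0.27 and 0.42. Spike-in scaling subtracted the mean of 8 spike-in transcripts (-0.15, SD 0.05) and so added 0.15 to every difference. The member median was then 0.16, 39 members were above 0, 3 were higher and 1 was lower by at least 0.32. Group medians were then 0.082 for the alpha ring, 0.20 for the beta ring, 0.21 for the ATPases, 0.17 for the other 19S subunits, 0.071 for the 19S chaperones, 0.21 for the 20S chaperones and -0.21 for the activators. With quantile normalization and with loess, 2 members were higher and 2 lower by at least 0.32, Psme2b being at -0.29 and -0.31. With the brightest probe per gene, 1 member was lower by at least 0.32, and medians were 0.082 for the 19S chaperones, -0.036 for the 20S chaperones and -0.20 for the activators. Among the 12 members with at least 2 probes, 0 were higher by at least 0.32, 5 were above 0, and the beta ring, then Psmb5 alone, was at 0.15. With no filter on dim probes, 1 member, Psmb11, was at least 2-fold lower, at signals not well above background. The cause was not tested where no construction is named. Of the single-member values under the 9 alternatives, 306 moved by less than the median spread between probes or not at all. The other 58 moved by more: 44 by the constant of spike-in scaling, 10 under quantile normalization and 4 with the brightest probe. Many of the 306 could not move, since no measured member had a dim probe and only Psme1 had an outlier spot. The brightest probe left the 32 members with 1 probe unchanged, and requiring at least 2 probes left the remaining 12 unchanged. Without Psmc3ip, added after seeing the data, the member median was 0.01. Dim probes limit Psmg2, Psmd9 and the lower Psme4 probe.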

Other observations

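A pair of probes described as proteasome-like in the files carries no proteasome symbol. One is annotated only by a transcript cluster similar to Psmd11. It read 3955 in c-Maf-/- and 3683 in c-Maf+/- cells, a difference of 0.08, beside 0.06 for Psmd11 itself. The other was not well above background on either array, at 6.36 in c-Maf-/- and 5.95 in c-Maf+/- cells.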
